A study of Mus musculus with 59 samples.

Results

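The effect of adding the V8.7E element to PAIR4 was examined by VDJ-seq of ex vivo-sorted bone marrow pro-B cells, by comparing 3 libraries of Igh(P4V/P4V) mice (P4V) directly with 3 libraries of Igh(P4/P4) mice (P4). These 6 libraries, chosen by genotype and by neighbouring experiment numbers, were part of the 59 samples of the series, and 3 Igh(+/+) libraries of the same set served as reference. Each library came from 1 mouse of the C57BL/6 background, whose age the labels did not give. Both mutant genotypes carried on both alleles the Igh Δ890 deletion, which removes a large stretch of the distal VH gene cluster with all of its PAIR elements. The P4 insert at the deletion point held PAIR4 in its natural orientation with the cDNA of its noncoding transcript and polyadenylation sites. The P4V insert held, in addition, the downstream sequence with the VH8-7 gene and its V8.7E element. The effects of V8.7E, of the VH8-7 gene and of the sequence between PAIR4 and VH8-7 can therefore not be told apart.

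In pro-B cells, the RAG recombinase joins a DH to a JH segment and then 1 of the many VH genes to the DJH joint. The enzyme cuts at a recombination signal sequence (RSS) next to each segment, which consists of a conserved heptamer, a spacer and a nonamer. The distal VH genes lie far from the DJH joint and depend on contraction of the locus, for which the transcription factor Pax5 is required. PAIR elements (Pax5-activated intergenic repeats) lie among the distal VH genes and bind Pax5, E2A and CTCF. The V8E elements lie just downstream of VH genes of the VH8 family. VDJ-seq counts unique VDJH and DJH joints, and the usage of a VH gene is given here as the percentage of all these joints.

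The RSSs of the VH genes next to the insertion are shown because the genes that gained and those that did not can be compared at the site of cleavage. They were read from the mouse genome build NCBIM37, chromosome 12, minus strand, directly 3′ of each V exon. Capitals mark the heptamer and the nonamer. VH1-85 to VH1-80 lie upstream of the insertion, on the far side from the DH and JH segments, and VH1-80 is the closest of them. VH1-47 is the closest gene on the downstream side, and VH1-42 and VH1-39 lie farther downstream.
VH1-85 (chr12:117238200-117238238): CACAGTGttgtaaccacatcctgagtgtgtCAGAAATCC
VH1-84 (chr12:117218874-117218912): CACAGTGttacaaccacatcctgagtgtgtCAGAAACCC
VH1-83 (chr12:117201989-117202027): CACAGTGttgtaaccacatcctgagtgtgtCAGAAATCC
VH1-82 (chr12:117190710-117190748): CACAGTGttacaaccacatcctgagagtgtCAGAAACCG
VH1-81 (chr12:117158451-117158489): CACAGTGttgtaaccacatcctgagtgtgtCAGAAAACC
VH1-80 (chr12:117150516-117150554): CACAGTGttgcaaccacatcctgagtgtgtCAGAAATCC
VH1-47 (chr12:116229280-116229318): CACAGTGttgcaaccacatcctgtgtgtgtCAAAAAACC
VH1-42 (chr12:116175285-116175323): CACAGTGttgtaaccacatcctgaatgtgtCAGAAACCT
VH1-39 (chr12:116152771-116152809): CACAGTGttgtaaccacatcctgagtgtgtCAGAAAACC

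The 9 genes share the same heptamer. The RSS of VH1-80 differs at 1 of 39 bases from that of VH1-83 and VH1-85, which are identical to each other, and the differing base lies in the spacer. It differs from VH1-81 and VH1-84 at 2 bases each, of which 1 lies in the nonamer, and from VH1-82 at 4 bases, of which 2 lie in the nonamer. VH1-81 and VH1-39, on opposite sides of the insertion, have the same RSS. The V exons of the 6 upstream genes are close paralogs with pairwise identities of 88.4 to 96.3%, the highest of which is that of VH1-80 and VH1-82. Usage of such genes is uncertain to the extent that the assignment of a joint could be split between them.

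The sequence that was added with P4V is represented by a stretch downstream of VH8-7 that continues towards V8.7E. VH8-7 was located in NCBIM37 as the best match of the V exon of VH8-8, with 87.5% identity over 296 bases. Capitals mark CACATTG, which starts 16 bases after the matched end of the V exon in both VH8-7 and VH8-8. It was taken as the heptamer by this position only, no nonamer was assigned, and the limits of V8.7E within the insert were not determined.
VH8-7 downstream stretch (chr12:116496103-116496342): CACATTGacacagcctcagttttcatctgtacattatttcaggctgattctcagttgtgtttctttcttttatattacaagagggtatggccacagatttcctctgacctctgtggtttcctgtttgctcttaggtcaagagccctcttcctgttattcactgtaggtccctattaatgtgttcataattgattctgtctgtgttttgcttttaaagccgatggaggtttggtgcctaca

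The genotypes were checked by the genes that the alleles lack or carry. The 48 listed VH genes of the deleted region summed to 0.158 to 0.188% of the joints in the 6 mutant libraries, in contrast to 7.72 to 11.7% in Igh(+/+) pro-B cells. VH8-7 was used at 0.225, 0.209 and 0.183% in the P4V libraries and was listed at 0 in each P4 library. In Igh(+/+) pro-B cells, where VH8-7 is at its own position, it was used at 0.244, 0.207 and 0.378%. The inserted VH8-7 gene thus recombined in each P4V library within or just under the Igh(+/+) range. Its presence follows from the construct and was not tested. The share of VDJH joints was 35.2% ± 1.42 in P4V and 33.6% ± 1.34 in P4 pro-B cells (SD, n = 3 each). The libraries of the 2 genotypes overlapped (exact permutation test, two-sided, p = 0.2), and those of Igh(+/+) were higher at 37.5 to 52.8%. The number of joints per library was not used here, as the files give percentages only, and all errors are spreads between mice. With 3 libraries against 3, the exact permutation test cannot give a p below 0.1.

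With V8.7E present, 5 of the 6 VH genes upstream of the insertion and 2 VH1 genes downstream of it were used more often. VH1-80 was not among them. Of the 103 VH genes tested, 10 passed an adjusted p of 0.05 (limma, 9.71%), of which 9 had higher and 1 (0.971%) lower usage in P4V pro-B cells. Of the 6 upstream genes tested, 5 rose, beside 8.74% of all tested genes. The count was 5 without P4 replicate 2 and 6 without P4V replicate 1, and the 5 upstream genes were called in both cases. Over all tested VH genes, the median log2 change was 0.061. Log2 changes were computed on log2(usage + 0.01), a scale that understates the change of little used genes.

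VH1-82, which lies 40.2 kb beyond VH1-80, was used at 0.724, 0.730 and 0.839% of the joints in the P4V libraries and at 0.379, 0.357 and 0.297% in the P4 libraries. Each P4V library lay far above each P4 library. The log2 change was 1.13 (SE 0.12, adjusted p = 3.36e-07, limma). VH1-81, the most used of the upstream genes and only 7.93 kb from VH1-80, was at 0.993, 0.946 and 1.07% with and at 0.517, 0.541 and 0.538% without V8.7E (log2 change 0.90, SE 0.10, adjusted p = 6.85e-07, limma). Its P4V libraries lay above and its P4 libraries close to the Igh(+/+) level of 0.477% ± 0.0994 (SD, n = 3).

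The 3 genes at the distal end gained as well, from lower levels. VH1-83 had the largest log2 change of the 6, 1.34 (SE 0.22, adjusted p = 9.62e-05, limma), with 0.181, 0.122 and 0.207% in P4V compared with 0.0624, 0.0488 and 0.0688% in P4 pro-B cells. With 0.05 instead of 0.01 added to the usage, the log2 change of VH1-82 was larger (1.05 against 0.98). VH1-84 was at 0.104, 0.0677 and 0.0951% against 0.0233, 0.0435 and 0.0462% (log2 change 1.07, SE 0.25, adjusted p = 0.00684, limma). VH1-83 and VH1-84 were below the Igh(+/+) libraries in each P4 library, whereas all their P4V libraries were higher than the P4 libraries. VH1-85, 87.7 kb beyond VH1-80 and the most distal gene with usage among those with a listed position, was at 0.217, 0.258 and 0.266% against 0.149, 0.120 and 0.151% (log2 change 0.78, SE 0.16, adjusted p = 0.00213, limma). The calls of these 5 genes held under each of the 14 other settings and left-out libraries that were tried.

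VH1-80, the upstream gene next to the insertion, did not pass the test. It was used at 0.337, 0.294 and 0.357% in P4V and at 0.322, 0.291 and 0.252% in P4 pro-B cells. The libraries overlapped, and the log2 change of 0.19 did not pass the threshold (95% confidence interval −0.095 to 0.47, adjusted p = 0.532, limma). The interval lies below that of VH1-81, which reaches from 0.69 to 1.12, but overlaps with that of VH1-85, from 0.44 to 1.11, and the difference between genes was not tested. The share of VH1-80 in the summed usage of the 6 upstream genes was accordingly lower, at 12.2 to 13.2% in the P4V libraries and 18.7 to 22.1% in the P4 libraries. This share was chosen after the values had been seen and was not tested. The RSSs of VH1-81, VH1-82 and VH1-84 differ from that of VH1-80 within the nonamer, whereas those of VH1-83 and VH1-85 do not, and the part of the RSS in the values was not tested.

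**Figure D1:**
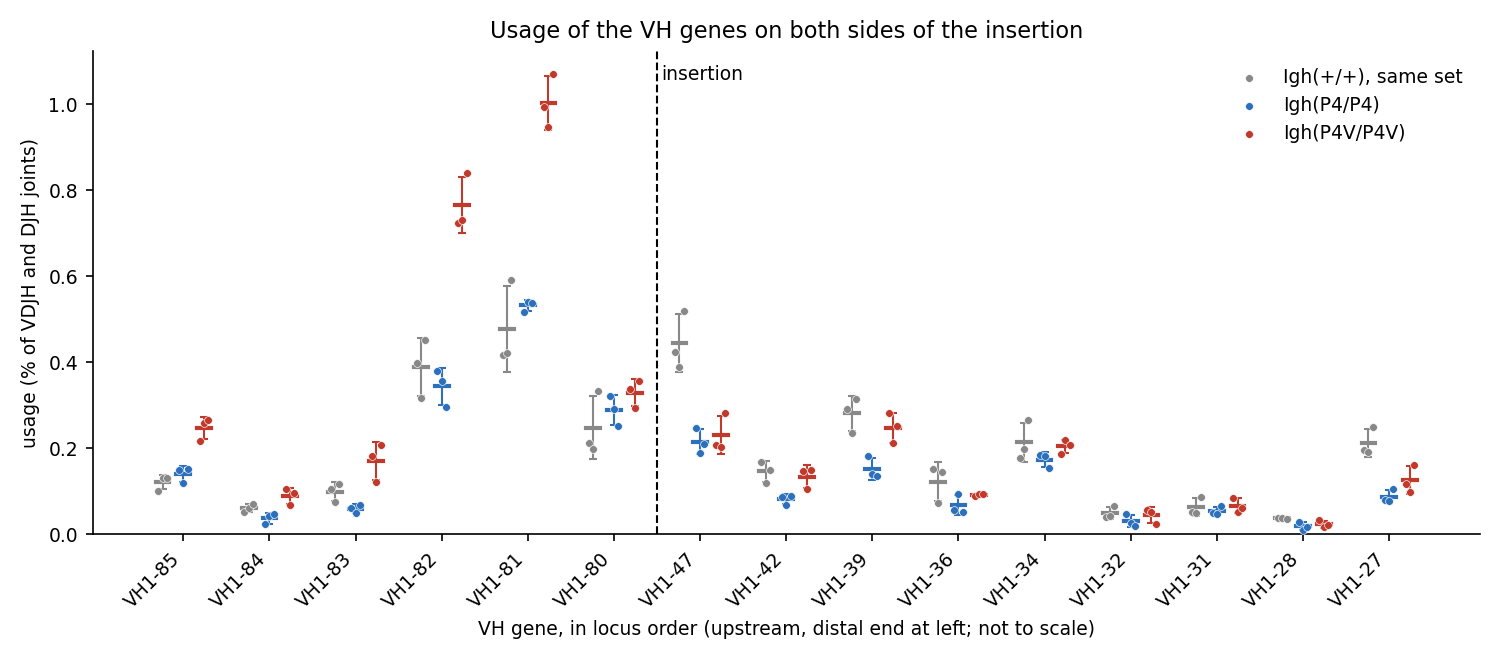
Usage (% of VDJH and DJH joints) of the 15 tested VH genes on both sides of the insertion in Igh(+/+) (grey), P4 (blue) and P4V (red) pro-B cells. Points are libraries, bars the mean and SD. The red points of VH1-85 to VH1-81 lie above the blue points, whereas those of VH1-80 and VH1-47, next to the dashed line of the insertion, overlap with them.

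Downstream of the insertion, 2 of the 9 tested genes rose, beside 8.74% of all tested genes, and the gene next to it did not pass the test. VH1-47 was used at 0.209, 0.203 and 0.283% in P4V and at 0.248, 0.189 and 0.209% in P4 pro-B cells, a log2 change of 0.092 (95% confidence interval −0.24 to 0.43, adjusted p = 0.884, limma). With and without V8.7E, VH1-47 was below its Igh(+/+) libraries, which ranged from 0.389 to 0.519%. VH1-39 rose from 0.181, 0.140 and 0.135% to 0.281, 0.212 and 0.251% (log2 change 0.67, SE 0.17, adjusted p = 0.00883, limma). This brought its mean of 0.248% near the Igh(+/+) mean of 0.281%. VH1-42 rose from 0.0857, 0.0693 and 0.0902% to 0.148, 0.104 and 0.151% (log2 change 0.65, SE 0.20, adjusted p = 0.0446, limma). The call of VH1-42 was close to the threshold and held under 5 of 14 other settings. Among left-out libraries, it held only without P4V replicate 2 (adjusted p = 0.0503 to 0.229 without any other library, limma). The call of VH1-39 held under 12 settings and was lost without P4V replicate 1 (adjusted p = 0.0558, limma) or P4 replicate 2 (adjusted p = 0.0723, limma).

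The remaining tested genes of the downstream flank, VH1-36, VH1-34, VH1-32, VH1-31, VH1-28 and VH1-27, had log2 changes of 0.22 to 0.46 and did not pass the threshold. All 9 tested genes of this flank had a positive log2 change, with a median of 0.41. VH1-27, the last of them, was at 0.118, 0.0992 and 0.162% against 0.0804, 0.0781 and 0.105%, with overlapping libraries. VH1-43 and VH1-37 were too little used to be tested. VH1-43 was at 0.00274, 0.0145 and 0% in the P4V libraries and listed at 0 in the P4 libraries, and VH1-37 was at 0.0192, 0.0145 and 0.00807% against 0.00635, 0.00533 and 0.00645%.

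As a sum, the 6 upstream genes accounted for 2.56, 2.42 and 2.84% of the joints in P4V and for 1.45, 1.40 and 1.35% in P4 pro-B cells. This is a 1.86-fold higher mean with non-overlapping libraries (exact permutation test, two-sided, p = 0.1). The P4 mean of 1.40% ± 0.0493 (SD, n = 3) was close to that of Igh(+/+) pro-B cells, 1.40% ± 0.262 (SD, n = 3), whereas the P4V libraries exceeded all Igh(+/+) libraries. As a percentage of VDJH joints, the upstream genes made up 7.16 to 7.75% in P4V and 4.02 to 4.31% in P4 libraries. In Igh(+/+) libraries they made up 3.17 to 3.21%. The P4 libraries were thus also above Igh(+/+) on this scale, but its denominators differ. The deleted VH genes add 7.72 to 11.7% of the joints to that of Igh(+/+) and 0.158 to 0.188% to those of the mutants. The downstream flank from VH1-47 to VH1-27 summed to 1.19% ± 0.0982 with and 0.891% ± 0.0675 without V8.7E (SD, n = 3 each), a 1.34-fold difference (exact permutation test, two-sided, p = 0.1). Here, both genotypes were below Igh(+/+) pro-B cells at 1.59% ± 0.255 (SD, n = 3).

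The ratio of the usage of the 6 upstream genes to that of the 6 downstream genes chosen by the study (VH1-47, 43, 42, 39, 37 and 36) was 3.42, 3.77 and 3.61 in the P4V libraries. It was 2.51, 2.81 and 2.75 in the P4 libraries and 1.22, 1.45 and 1.47 in the Igh(+/+) libraries. The libraries with PAIR4 alone thus lay above the Igh(+/+) libraries, and the mean ratio was a further 1.34-fold higher with V8.7E, without overlap (exact permutation test, two-sided, p = 0.1). It depended on how the genes were weighted. In another form, each gene was first divided by its Igh(+/+) mean and all genes were counted alike. The fold between P4V and P4 was 1.92 for the 6 upstream and 1.97 for the 6 downstream genes. On this scale, the gain was thus not larger upstream for these genes. The ratio of each library was then 2.09, 1.53 and 2.99 in P4V and 2.06, 2.12 and 2.28 in P4, and the 2 genotypes overlapped. VH1-43 and VH1-37 weigh as much as the others in these values. Without them, an alternative chosen after the data had been seen, the ratio of each library was 2.21, 2.37 and 2.35 in P4V and 1.66, 1.67 and 1.88 in P4, and the genotypes did not overlap.

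The mean total of VDJH joints was 1.59 percentage points higher in P4V than in P4 pro-B cells. The difference between the means was 1.20 points for the upstream genes, 0.300 for the downstream flank, 0.206 for VH8-7 itself and −0.116 for the sum of all other VH genes. This last sum was 31.2% ± 1.13 with and 31.3% ± 1.32 without V8.7E (SD, n = 3 each). Its libraries overlapped (exact permutation test, two-sided, p = 0.8). Their SDs are not small beside the gain at the insertion, so that a lower sum elsewhere could not be told from an equal one. Within this sum, the regions described below differed by 0.454 (inner distal), −0.366 (middle) and −0.355 points (proximal), each with overlapping libraries. The names without a listed position differed by 0.142 points, without overlap.

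**Figure D2:**
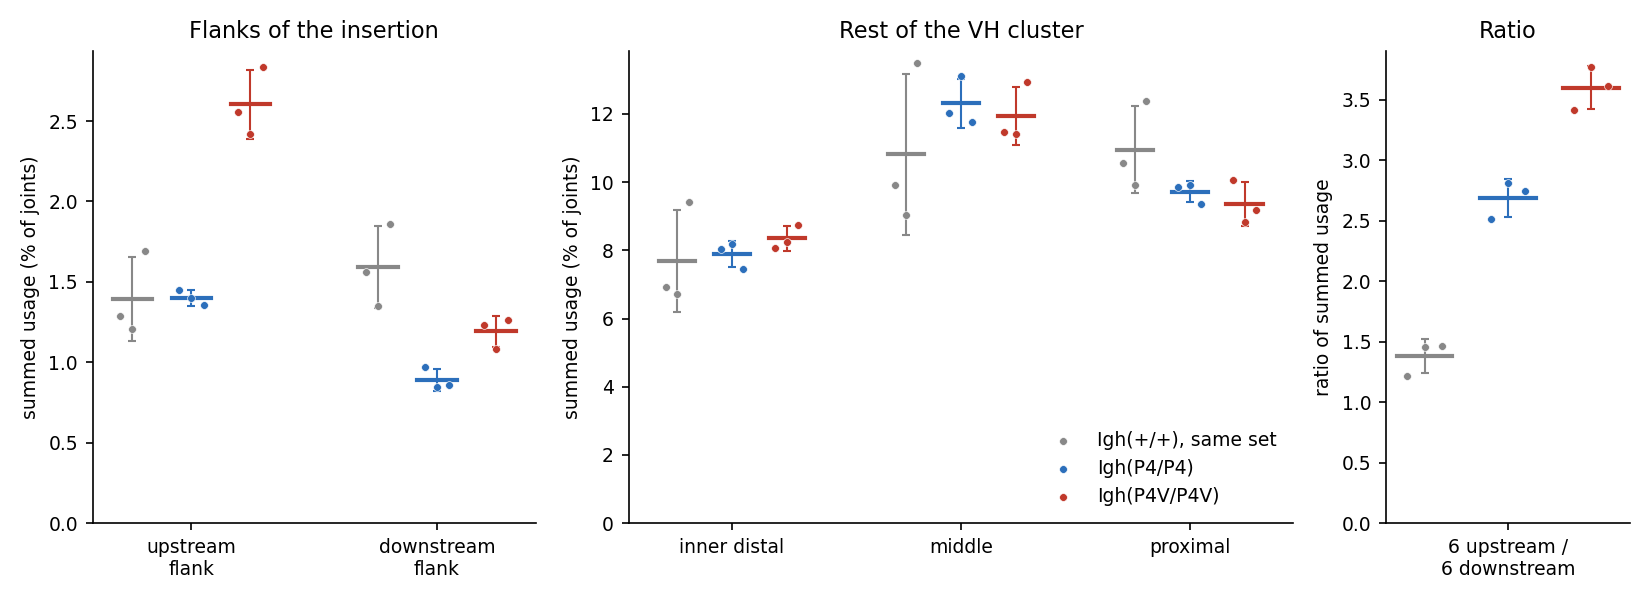
Summed usage (% of joints) by region and the ratio of the 6 upstream to the 6 downstream VH genes in each library of Igh(+/+) (grey), P4 (blue) and P4V (red) pro-B cells, with mean and SD. Both flanks and the ratio are higher in red than in blue without overlap, whereas the points of the inner distal, middle and proximal regions overlap.

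Farther from the insertion, the sums of the 3 regions of the VH gene cluster overlapped between the libraries of both genotypes. The inner distal region, from VH1-26 to VH1-2, summed to 8.35% ± 0.358 in P4V and 7.89% ± 0.382 in P4 pro-B cells (SD, n = 3 each). The middle region, with the VH genes of several small families, summed to 11.9% ± 0.861 and 12.3% ± 0.716, and the proximal region, with the VH2 and VH5 genes, to 9.36% ± 0.633 and 9.72% ± 0.303 (SD, n = 3 each). The p adjusted over the 3 regions was 0.5 for each (exact permutation test, two-sided). Since the smallest p of this test before adjustment is 0.1, no region could have passed. Of the 22, 32 and 18 tested genes in these regions, the numbers past the threshold were 0, 1 and 0, beside 9.71% of all tested genes.

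The 1 gene called lower was VH11-1 in the middle region. The number of genes called lower was 2 as a percentage of VDJH joints and 0 when scaled to the proximal VH genes (limma). VH11-1 was used at 0.193, 0.205 and 0.257% in P4V and at 0.298, 0.356 and 0.288% in the P4 libraries (log2 change −0.51, SE 0.15, adjusted p = 0.0296, limma). The P4V libraries were in the range of the Igh(+/+) libraries, 0.159 to 0.264%, and the P4 libraries above it. Its call held under 7 of 14 other settings and was lost without P4V replicate 1 (adjusted p = 0.141, limma), P4V replicate 2 (adjusted p = 0.0662, limma) or P4 replicate 2 (adjusted p = 0.229, limma). VH11-2, the other gene of this family, was at 0.518% ± 0.0805 and 0.555% ± 0.075 (SD, n = 3 each) and did not pass.

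Libraries of the 2 genotypes did not overlap for 20 of the 103 tested genes (19.4%), 13 of them higher (12.6%) and 7 lower (6.8%) in P4V pro-B cells. The 13 higher genes all belonged to the VH1 family and comprised 5 upstream, 3 downstream and 3 inner distal genes and 2 without a listed position. The inner distal genes were VH1-26, VH1-19 and VH1-18, named here after their values had been seen. VH1-18 was at 1.02, 0.987 and 1.02% against 0.835, 0.854 and 0.844%, a log2 change of 0.25 that did not pass the threshold (adjusted p = 0.167, limma). Of the 7 lower genes, 5 lay in the middle region and 1 in the proximal region.

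**Figure D3:**
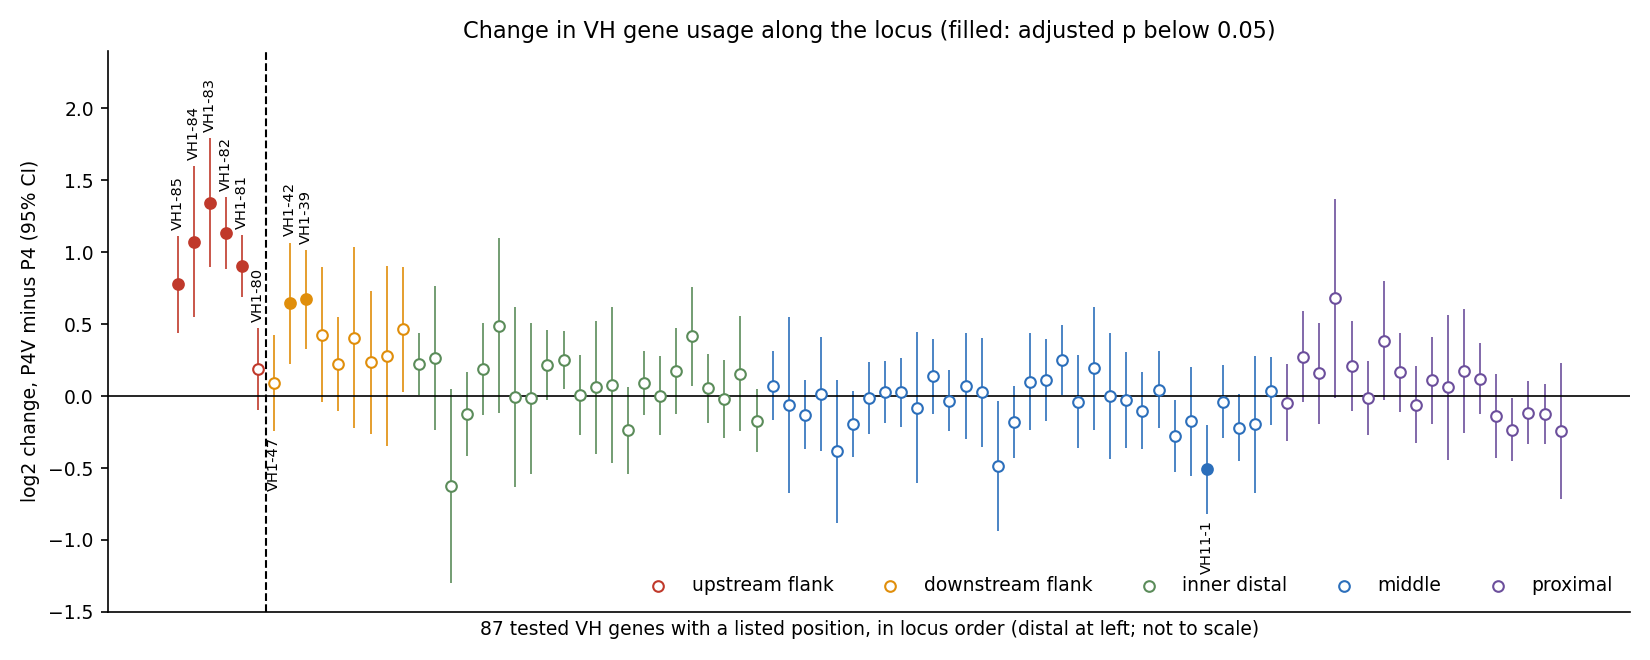
Log2 change in usage (P4V minus P4, with 95% confidence interval) of the 87 tested VH genes with a listed position, in locus order from distal (left) to proximal (right). Filled points passed an adjusted p of 0.05 and the dashed line marks the insertion. The filled points near the line are 5 of the 6 upstream and 2 of the 9 downstream flank genes, VH1-80 and VH1-47 next to the line are open, and 1 filled point (VH11-1) lies lower in the middle region.

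A pair of further VH1 names that the list of the study does not place in the locus passed the threshold. IGHV1-87 was at 0.509, 0.456 and 0.435% in P4V and at 0.341, 0.380 and 0.327% in the P4 libraries (log2 change 0.41, SE 0.12, adjusted p = 0.0342, limma). IGHV1S12 rose from 0.00846, 0.00622 and 0.00752% to 0.0265, 0.0203 and 0.0314% (log2 change 1.04, SE 0.29, adjusted p = 0.022, limma). All P4 values of IGHV1S12 were below the minimum mean usage of 0.01% for testing, so that the name passed this filter only through the P4V libraries and its call gives no independent support. For both names, the P4V libraries overlapped with the Igh(+/+) libraries. Their calls held under 5 of 14 and 9 of 13 other settings. That of IGHV1-87 was lost when any library other than P4V replicate 3 was left out (adjusted p = 0.0539 to 0.173, limma). That of IGHV1S12 was lost without any of the P4V libraries (adjusted p = 0.0518 to 0.141, limma) or without P4 replicate 2 (adjusted p = 0.0526, limma).

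None of the 5 most used VH genes of these libraries passed the threshold (limma). VH5-2, the most used gene, accounted for 3.28, 2.59 and 2.90% of the joints in P4V and for 3.16, 3.37 and 2.99% in P4 pro-B cells (95% confidence interval of the log2 change −0.33 to 0.084). VH2-2 had a log2 change of −0.12, VH12-3 of −0.013 and VH13-2 of 0.027, each with overlapping libraries. VH1-26 was at 1.17% ± 0.115 against 0.996% ± 0.0642 (SD, n = 3 each), a log2 change of 0.22 (adjusted p = 0.263, limma).

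Among the 15 VH families, counted outside the deletion and without VH8-7, only VH1 had non-overlapping and higher sums with V8.7E. VH1 genes made up 10.8, 10.4 and 11.5% of the joints in P4V and 8.89, 9.03 and 8.33% in P4 pro-B cells, a 1.24-fold difference. Without both flanks, the VH1 sum was 7.09% ± 0.239 against 6.46% ± 0.335 (SD, n = 3 each), and the libraries still did not overlap. The VH6 family was the only one with non-overlapping lower sums, at 1.12 to 1.23% against 1.24 to 1.42%, and both genotypes were above the Igh(+/+) libraries (0.610 to 1.06%). The other 13 families overlapped, and no family passed a test adjusted over the families (lowest adjusted p = 0.75, exact permutation test, two-sided). Since the smallest p of this test before adjustment is 0.1, no family could have passed.

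**Figure D4:**
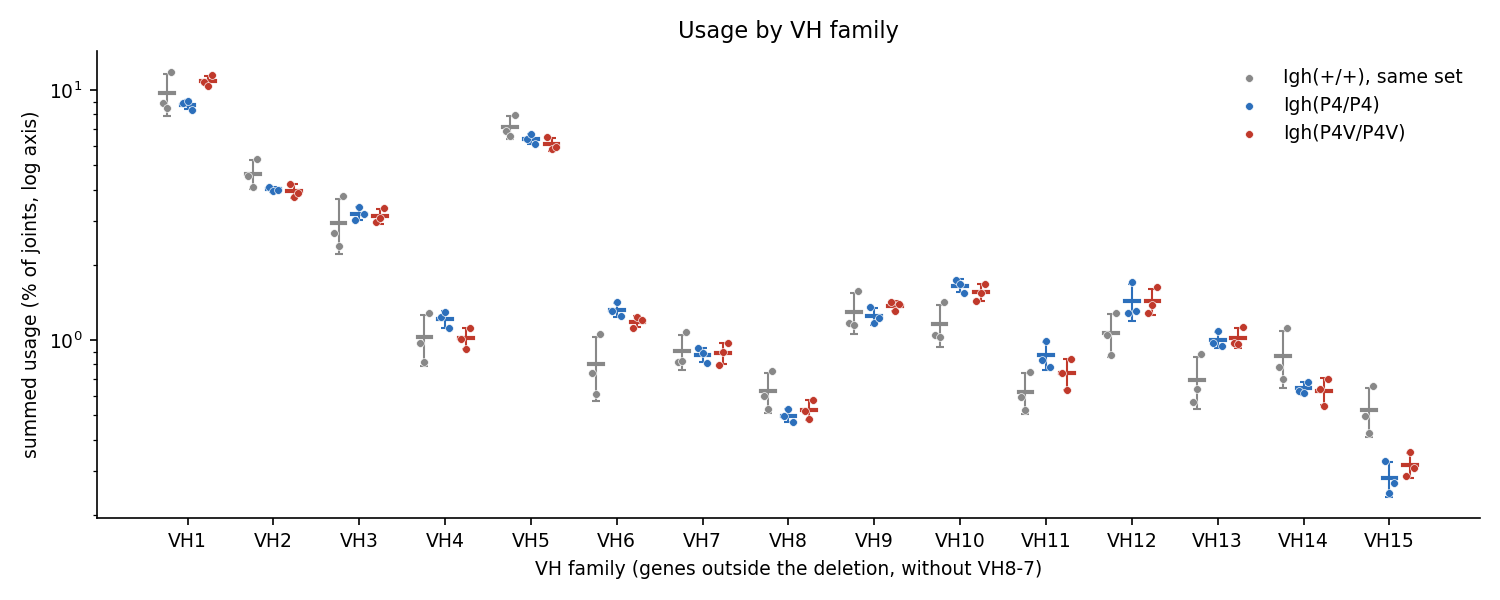
Summed usage (% of joints, log axis) of the 15 VH families in the libraries of Igh(+/+) (grey), P4 (blue) and P4V (red) pro-B cells, with mean and SD. VH1 is higher and VH6 lower in red than in blue without overlap, whereas the other 13 families overlap.

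The ratio of upstream to downstream usage was also read in the libraries of other genotypes, which carry other experiment numbers and their own Igh(+/+) libraries. It was 3.62 to 3.77 in 3 Igh(P4GV/P4GV) libraries, whose insert also holds V8.7E and in which a Gfp gene is linked to PAIR4. It was 2.04 to 2.89 with inverted PAIR4 in Igh(P4inv/P4inv), 2.12 to 2.81 in Igh(P4StopG/P4StopG), with a transcriptional stop in PAIR4, and 2.37 to 3.37 in Igh(EmG/EmG), with the Eμ enhancer in place of PAIR4. The empty Igh Δ890 deletion gave 1.33 to 1.40, above the 0.979 to 1.26 of its own Igh(+/+) libraries. Both sides were low, at 0.304 to 0.458 (upstream) and 0.249 to 0.364 (downstream) of the Igh(+/+) mean. The median ratio of the Igh(+/+) libraries differed between the sets, from 1.11 to 1.47. The P4V libraries and these 3 Igh(P4GV/P4GV) libraries thus had higher ratios of summed usage than the libraries of the other insertions read here. Since the sets differ in their experiment numbers, this was not tested. With genes weighted alike, the P4V and P4 libraries overlapped, as given above, and this form of the ratio was not read in the other genotypes. A later set of 12 libraries was not used, as 6 of them hold the same values as another library. It includes a further Igh(P4GV/P4GV) library and the genotypes Igh(P4_delta_Pax5GV/P4_delta_Pax5GV) and Igh(P4_delta_CtftGV/P4_delta_CtftGV), so the ratios do not cover every genotype with V8.7E.

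**Figure D5:**
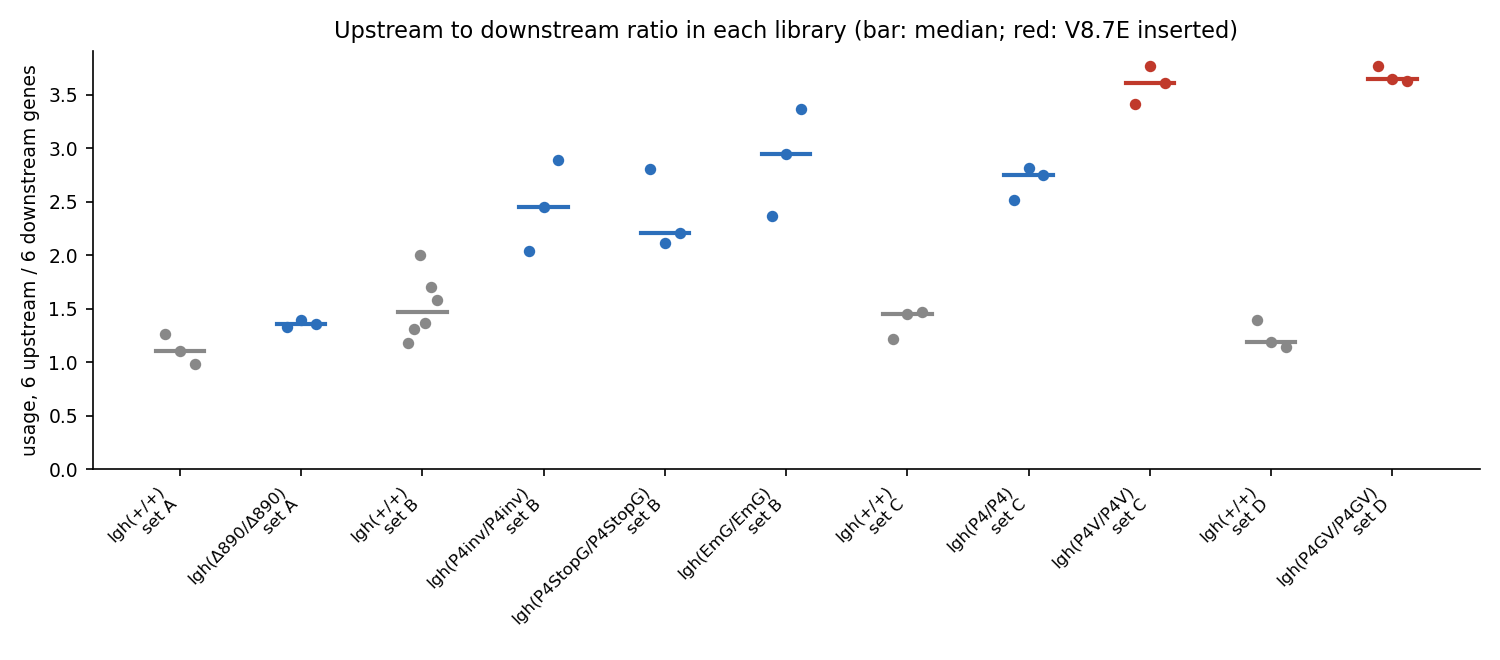
Ratio of the usage of the 6 upstream to the 6 downstream VH genes in each library (points) with the median (bar), for 4 sets of experiment numbers. Of the libraries shown, those whose insert holds V8.7E (red) range from 3.42 to 3.77, those of other insertions and of the empty deletion (blue) from 1.33 to 3.37 and Igh(+/+) libraries (grey) from 0.979 to 2.01.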

How the data were processed

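In the VDJ-seq protocol, the authors ligated sheared genomic DNA to adapters with unique molecular identifiers, captured the joints by extension from biotinylated JH primers and removed duplicates with a published pipeline. The deposited value of each VH gene is a percentage of all unique VDJH and DJH joints of the library, already normalized by the authors. Values above 0 were whole multiples of 1 step per library (0.000444 to 0.000537% in the 6 mutant libraries, relative tolerance 1e-06), but the files do not say how many joints there were, the depth is unknown and no counting intervals are given. The assignment of joints to VH genes used a genome build that is not given in the sources used here. Of the 239 VH genes listed per library, 103 had a mean usage of at least 0.01% over the 6 libraries and lay outside the deletion. They were tested with limma 3.58.1 in R 4.3.3 (moderated test with trend) on log2(usage + 0.01), with Benjamini-Hochberg adjustment over all 103 genes. Sums, families and ratios were compared with exact two-sided permutation tests in Python 3.11.15. Tested on simulated data with these 103 genes, the procedure recovered 88.3% of log2 changes of 1 and 46.7% of log2 changes of 0.5. Of its calls, 6.36% were false. The simulation used independent normal noise with the fitted spread of each gene and as many changes up as down. It had no effect shared within a library and no fixed total, so these rates may not hold for the data. The position of VH genes in the locus was taken from the VH list of the study, and 56 names of the files are not in it. Coordinates and sequences are from NCBIM37 with the GENCODE vM1 annotation, in which all 12 named flank genes were found under their symbols or RefSeq synonyms, of which 9 are printed, and Biopython 1.88 was used for alignments.

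Named were VH8-7, VH1-86, the flanking genes, up to 10 further genes per direction past the threshold with non-overlapping libraries, and the 5 most used genes. The members, gene lists and tests were chosen with earlier results of these data known. No cell type markers can be read from VDJ-seq, and the sort was not checked beyond the genotype. No 2 of the 9 libraries held identical values. The libraries are labelled as separate samples.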

Additional observations from a re-analysis of the deposited data

How the results depend on the processing

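No paired analysis was possible because the labels give no replicate numbers that the 2 genotypes share. The count of 10 VH genes past the threshold was between 7 and 10 under the 8 other settings. With a single library left out it ranged from 5 (without P4 replicate 2) to 8, with 6 genes without P4V replicate 1. VH1-85, VH1-84, VH1-83, VH1-82 and VH1-81 passed in each of these fits. The fold of the upstream flank was 1.77 to 1.93 and that of the downstream flank 1.27 to 1.40 over all settings and left-out libraries. The ratio of both sides was 1.29 to 1.37-fold higher with single libraries left out and 1.02 to 1.39-fold under the other settings. The value of 1.02 came with each gene divided by its Igh(+/+) mean and all genes counted alike. The alternative without VH1-43 and VH1-37 gave 1.33 and was chosen after seeing the data. VH8-7 usage relative to Igh(+/+) pro-B cells was 0.744 as a percentage of all joints and 0.941 as a percentage of VDJH joints.

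Small differences turned their direction. Scaled to the proximal VH genes, the fold between P4V and P4 was 1.01 for the middle region, 1.02 for VH2, 1.02 for VH3, 1.04 for VH12 and 1.01 for VH14, each below 1 as a percentage of all joints with all libraries, and the log2 change of VH12-3 was 0.042. As a percentage of VDJH joints, the fold was 0.970 for VH7 and 0.973 for VH13, each above 1 as a percentage of all joints with all libraries, and the log2 change of VH13-2 was −0.040. With single libraries left out, the fold ranged from 0.930 to 1.00 for the middle region, 0.953 to 1.01 for VH2, 0.943 to 1.01 for VH3, 0.967 to 1.07 for VH7, 0.932 to 1.11 for VH12, 0.966 to 1.07 for VH13 and 0.924 to 1.04 for VH14. The log2 changes then ranged from −0.054 to 0.19 for VH1-47, −0.10 to 0.13 for VH12-3 and −0.047 to 0.086 for VH13-2. None of these values was past a threshold. The cause was not tested.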

Other observations

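Of the 48 listed VH genes of the deleted region, 18 had a value above 0 in at least 1 of the 6 mutant libraries, and 4 had a mean of at least 0.01%. VH1-64 was the most used of them, with 0.0521, 0.0730 and 0.0910% in the P4V and 0.0613, 0.0648 and 0.0467% in the P4 libraries, while Igh(+/+) pro-B cells had 0.570 to 0.776%. The sum over the deleted genes did not differ beyond its spread between the 2 mutant genotypes, at 0.178% ± 0.0117 and 0.169% ± 0.0126 (SD, n = 3 each). VH1-86, the most distal VH gene of the list, was listed at 0 in all 9 libraries.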
